A study of Homo sapiens with 8 samples.

Results

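The genes described here are 10 genes of the YAP-TEAD pathway and the thrombospondin family: the matricellular genes THBS1, THBS2, CCN1 (earlier CYR61) and CCN2 (earlier CTGF), the further YAP-TEAD targets ANKRD1, AMOTL2, LATS2 and AXL, and the transcription partners TEAD1 and YAP1. Every probe set annotated to these genes alone was taken, which gave 25 probe sets for 10 of the 19775 genes in the table. The genes were selected by name after earlier results of the dexrazoxane comparison were known, in which THBS1 and CCN1 were lower, so that comparison is given for them as a description without a test. All 10 genes passed the filter on low values with their brightest probe set, and 23 of the 25 probe sets did.

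The arrays were hybridised with cRNA from HTETOP cells, a human line made from HT1080 fibrosarcoma cells in which TOP2A can be switched off with a tetracycline; all 4 groups are this line, and so all carry the regulated gene. In the first comparison 1 array of cells given doxycycline at 1 µg/ml for 24 h, which represses TOP2A, is set against 1 vehicle array, both made from RNA of passages 15 to 17. In the second, 3 arrays of cells given 100 µM dexrazoxane for 24 h, a catalytic inhibitor of topoisomerase II, are set against 3 vehicle arrays, each from RNA pooled over 3 passages. The labels do not tie the numbered arrays to separate cultures, so errors and p-values describe how these arrays vary, and that variation may be technical.

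TOP2A read 11.98 on the doxycycline vehicle array and 6.02 on the doxycycline array, and 12.40 to 12.55 with vehicle against 10.52 to 11.20 with dexrazoxane. Array medians were 4.81 to 4.82 in the doxycycline pair and 5.49 to 5.57 on the other 6 arrays, so levels are compared only within each experiment. Of the mesenchymal markers, vimentin (VIM), fibronectin (FN1) and SPARC were bright, with vehicle means of 13.80, 11.99 and 11.93, while COL3A1 and LUM were below the filter. Of the epithelial markers KRT18, KRT8 and CLDN4 passed, with vehicle means of 11.16, 9.70 and 5.94, and EPCAM, CDH1, KRT19 and ESRP1 were below it. The leukocyte markers CD3E (7.01) and LYZ (5.45) passed and PTPRC and CD14 did not, and the endothelial markers PECAM1 (6.56), TEK (6.52) and VWF (5.41) passed and CDH5, KDR and CLDN5 did not.

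YAP and its paralog TAZ (WWTR1) are coactivators that do not bind DNA themselves and reach their targets through TEAD transcription factors. The Hippo kinases, among them LATS2, phosphorylate YAP and hold it in the cytoplasm, whereas cell spreading, tension in the actin cytoskeleton and growth at low density let it enter the nucleus. Several targets, among them LATS2 and AMOTL2, feed back to restrain YAP. Thrombospondins and CCN proteins are secreted into the matrix, where they bind integrins and other receptors and shape adhesion, blood vessel growth and the activation of TGF-beta.

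TEAD factors recognise the core GGAATG, and the promoters of the members show where these letters stand. The RefSeq promoter table for build GRCh38.p14, which gives 300 bases per start site, matched 8 members with 10 start sites. At least 1 match to GGAATG or its reverse complement CATTCC stood in 8 of the 10 promoters and in 1 promoter of each of the 8 genes, while 4928 of all 35116 promoters in the table held 1 or more, 1.37% held 2 or more and 0.128% held 3 or more. The 250 bases before the start site are printed for the 4 members whose promoters show the arrangements most clearly, 5′ to 3′ on the gene's strand, with the core in capitals. They lie at chr6:131951373-131951622 on the minus strand for CCN2, chr10:90921088-90921337 on the minus strand for ANKRD1, chr15:39580829-39581078 on the plus strand for THBS1 and chr6:169253847-169254096 on the minus strand for THBS2.
CCN2: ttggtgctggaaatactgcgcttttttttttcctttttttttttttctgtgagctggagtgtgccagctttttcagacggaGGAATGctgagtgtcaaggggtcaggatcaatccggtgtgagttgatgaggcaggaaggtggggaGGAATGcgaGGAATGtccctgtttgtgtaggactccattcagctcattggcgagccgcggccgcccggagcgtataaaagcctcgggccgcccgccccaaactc
ANKRD1: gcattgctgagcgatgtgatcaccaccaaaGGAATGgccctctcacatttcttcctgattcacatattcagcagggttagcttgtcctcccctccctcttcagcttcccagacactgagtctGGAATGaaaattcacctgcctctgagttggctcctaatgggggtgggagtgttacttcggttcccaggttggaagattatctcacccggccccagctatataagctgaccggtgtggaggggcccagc
THBS1: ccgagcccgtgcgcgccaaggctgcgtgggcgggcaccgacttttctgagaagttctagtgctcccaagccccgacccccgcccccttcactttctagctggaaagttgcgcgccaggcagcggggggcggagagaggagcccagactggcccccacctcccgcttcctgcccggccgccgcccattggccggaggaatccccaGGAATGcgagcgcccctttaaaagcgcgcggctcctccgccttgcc
THBS2: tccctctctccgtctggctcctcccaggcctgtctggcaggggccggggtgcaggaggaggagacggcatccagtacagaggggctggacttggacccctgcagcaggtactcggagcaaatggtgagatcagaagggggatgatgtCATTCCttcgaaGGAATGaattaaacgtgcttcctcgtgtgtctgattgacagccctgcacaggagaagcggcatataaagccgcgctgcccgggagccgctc

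The CCN2 promoter held 3 forward matches, whose first bases lie at -169, -104 and -95 from the start site. ANKRD1 held 2 forward matches, at -220 and -128, and THBS1 held 1, at -46. In THBS2 a reverse match at -103 and a forward match at -91 point away from each other. YAP1 had 1 forward match at -162 and LATS2 1 at 9, inside the transcribed part; AMOTL2 and AXL each had 1 reverse match at 1 of their 2 start sites, at -69 and -212. The pattern TGANTCA is a loose form of the AP-1 motif that allows any middle base and reads the same on both strands. It matched 1 of the 10 promoters, that of ANKRD1 at -195, against 7.71% of all promoters. There the letters are TGATTCA, which is neither of the stricter forms TGACTCA and TGAGTCA, and they overlap no TEAD core. A match to letters is a description of the sequence and not evidence of binding.

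**Figure D1:**
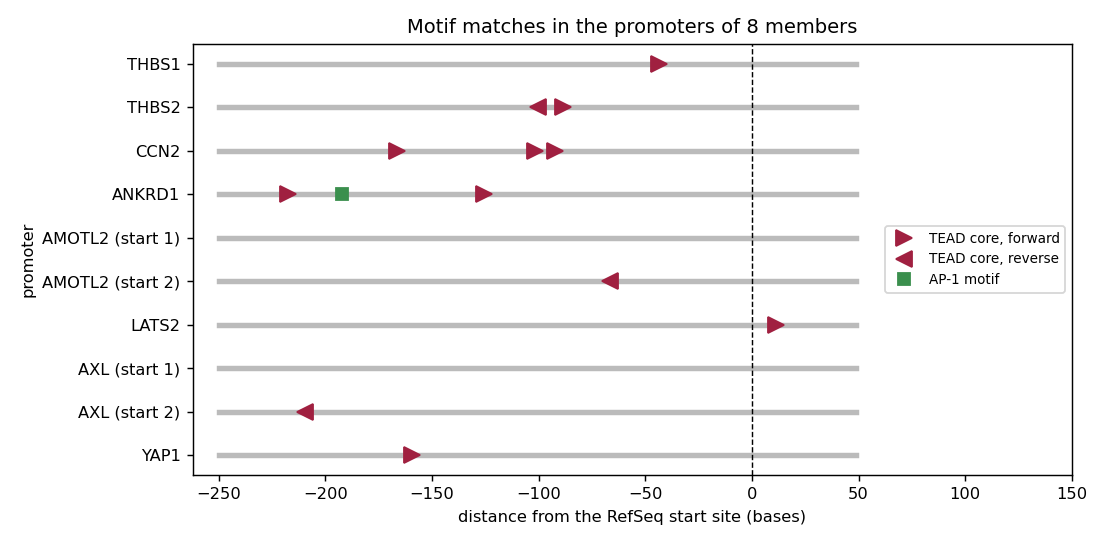
Positions of the TEAD core (triangles, pointing with its orientation) and of the loose AP-1 pattern TGANTCA (square) in the 10 promoters of 8 members. The x axis is the distance from the RefSeq start site in bases, and grey bars mark the window searched. CCN2 has 3 matches to the core and THBS2 and ANKRD1 have 2 each.

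THBS1 encodes thrombospondin-1, a secreted trimer that binds CD47 and CD36 and activates latent TGF-beta (chr15:39581079-39599466). Its brightest probe set read 10.55, 10.35 and 10.20 on vehicle arrays 1 to 3 and 9.93, 9.75 and 9.59 on dexrazoxane arrays 1 to 3. Every dexrazoxane array lay below every vehicle array, and within each same-numbered pair the gap was almost the same size. The difference was -0.61 ± 0.07 (log2, SE of the paired fit, n = 3 pairs), a level 1.53-fold lower, with -0.62, -0.61 and -0.62 in the 3 pairs. The SEs given here and below come from limma, which draws each variance toward that of the others in the fit. The SD of these 3 differences was 0.006.

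THBS1 was covered by 7 probe sets, which did not all show this. The next 2 in brightness also had all dexrazoxane arrays under all vehicle arrays, with differences of -0.52 ± 0.09 and -0.46 ± 0.09 (SE, n = 3 pairs). The fourth differed by -0.49 and -0.46 in pairs 2 and 3 but by -0.02 in pair 1. The 3 dimmest, with vehicle means of 5.34, 4.43 and 3.35, differed by -0.17, -0.05 and -0.10, and the last 2 of them were below the filter. Averaged over its 7 probe sets THBS1 differed by -0.32.

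THBS2 encodes thrombospondin-2, a close relative that also restrains blood vessel growth (chr6:169215785-169253846). Its probe set read 7.84, 8.25 and 8.30 with vehicle and 7.77, 7.86 and 8.29 with dexrazoxane. The groups overlapped almost wholly, and array 2 alone was clearly lower. The mean difference was -0.16 ± 0.09 (SE, n = 3 pairs), made of -0.07, -0.39 and -0.01, and without pair 2 it was -0.04.

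CCN1 encodes a matricellular ligand of integrins and is an early response gene (chr1:85580761-85583950). Its brighter probe set read 11.42, 11.54 and 11.89 with vehicle and 11.10, 11.10 and 11.59 with dexrazoxane. Array 3 was the highest in both groups, so the groups overlapped although each dexrazoxane array was below its own vehicle array. The difference was -0.35 ± 0.07 (SE, n = 3 pairs), 1.28-fold lower, and the second probe set gave -0.40 ± 0.10, with -0.47, -0.59 and -0.15 in the pairs.

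CCN2 encodes connective tissue growth factor, which is also induced by TGF-beta (chr6:131948176-131951372). It read 11.92, 11.14 and 12.02 on the vehicle arrays and 11.80, 10.78 and 11.48 on the dexrazoxane arrays. Array 2 was by far the lowest in both groups, and the spread between arrays was larger than the difference between treatments. Each pair was lower with dexrazoxane, by -0.11, -0.37 and -0.53, with a mean of -0.34 ± 0.09 (SE, n = 3 pairs). When 1 array was left out, the unpaired difference ran from -0.05 without dexrazoxane array 2 to -0.61 without vehicle array 2, with -0.18 without vehicle array 3 and -0.56 without dexrazoxane array 1.

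ANKRD1 encodes a nuclear and sarcomeric ankyrin repeat protein and is among the most used reporters of YAP activity (chr10:90912096-90921087). Its probe set read 7.93, 7.79 and 8.80 with vehicle and 7.94, 7.11 and 8.28 with dexrazoxane. Array 3 was the highest in both groups, and the groups overlapped widely. Pairs 2 and 3 differed by -0.68 and -0.52 while pair 1 differed by 0.01, which gave -0.40 ± 0.13 (SE, n = 3 pairs). The SD of the 3 differences was 0.36, so this SE is narrower than the pairs alone would give. Without pair 1 the mean was -0.60 and without pair 2 it was -0.26. Unpaired, it ran from -0.06 without dexrazoxane array 2 and -0.08 without vehicle array 3 to -0.65 without dexrazoxane array 3.

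AMOTL2, an angiomotin-like scaffold that sequesters YAP (chr3:134355345-134375417), read 10.47, 9.77 and 9.79 with vehicle and 10.66, 9.82 and 9.84 with dexrazoxane. Array 1 stood apart in both groups, and the mean difference was 0.09 ± 0.08 (SE, n = 3 pairs). LATS2, the Hippo kinase that phosphorylates YAP (chr13:20973036-21061586), read 8.69, 8.53 and 9.04 with vehicle and 9.10, 8.57 and 9.12 with dexrazoxane in its brightest probe set. Its groups overlapped, with a difference of 0.17 ± 0.09 (SE, n = 3 pairs) that came mostly from pair 1 (0.41). The other 3 LATS2 probe sets differed by 0.04, -0.01 and -0.23, so that the mean over its 4 probe sets was -0.01.

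AXL, a receptor tyrosine kinase activated by GAS6 (chr19:41219223-41261766), read 12.09, 11.93 and 11.98 with vehicle and 12.08, 11.93 and 12.18 with dexrazoxane. Only array 3 was visibly higher, the mean difference was 0.06 ± 0.08 (SE, n = 3 pairs), and the second probe set gave 0.10.

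TEAD1, the DNA-binding partner of YAP (chr11:12674421-12944737), read 10.69, 10.53 and 10.56 with vehicle and 10.43, 10.31 and 10.38 with dexrazoxane in its brightest probe set. No dexrazoxane array reached a vehicle array. The difference was small, at -0.22 ± 0.07 (SE, n = 3 pairs), and close in the 3 pairs at -0.26, -0.23 and -0.18. Its dimmer probe sets gave -0.17, with pair 1 at 0.11, and -0.26.

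YAP1 itself (chr11:102110447-102233424) read 10.79, 11.01 and 10.74 with vehicle and 10.81, 10.89 and 10.62 with dexrazoxane. The groups overlapped, and the differences of its 3 probe sets were -0.07, -0.07 and 0.04, with SEs of 0.08 to 0.10. The transcript level says nothing of where the YAP protein was in the cell.

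**Figure D2:**
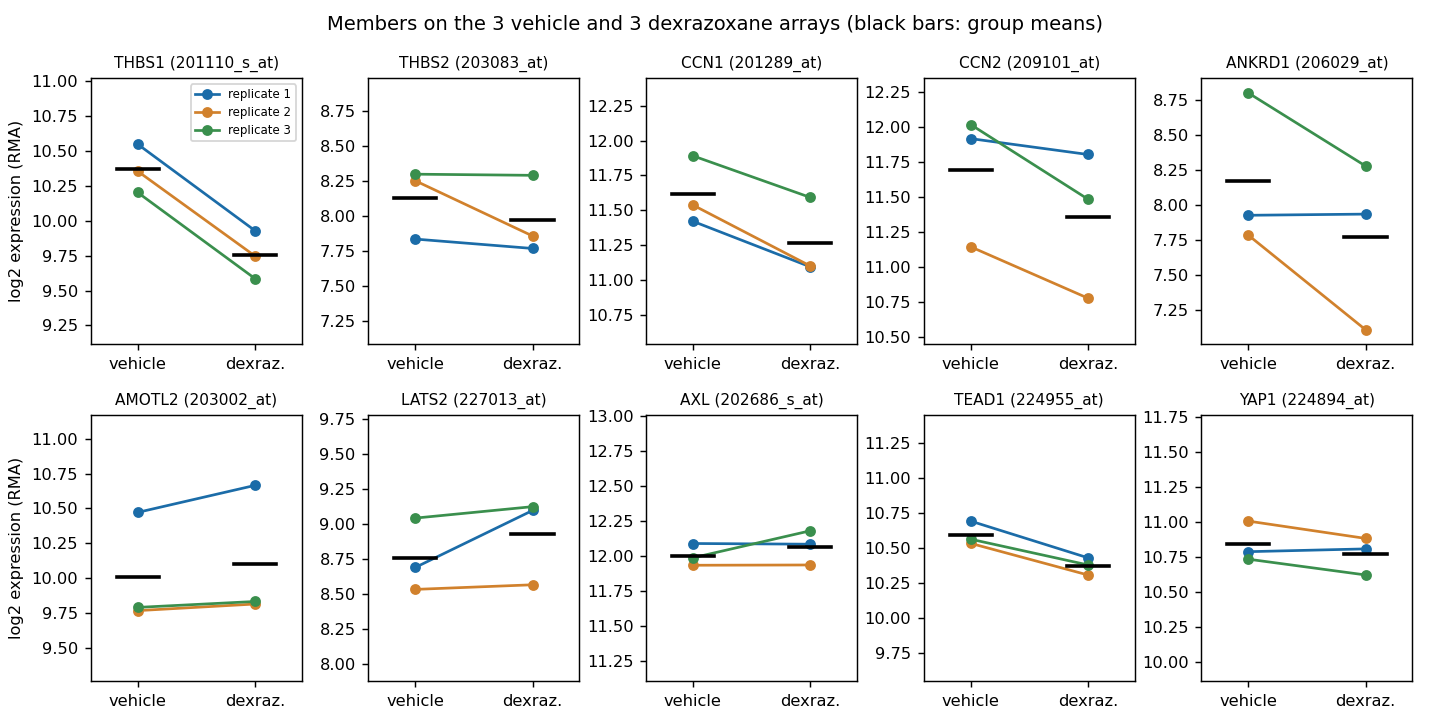
Log2 expression of each member's brightest probe set on the 3 vehicle and 3 dexrazoxane arrays; lines join arrays of the same replicate number, black bars are group means, and every panel spans the same height on the log2 scale. THBS1 and TEAD1 are the 2 members whose groups do not overlap, and CCN2, ANKRD1 and AMOTL2 have wide spreads that same-numbered arrays share.

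Over the 10 members the mean difference was below 0 for 7 and above 0 for 3, with a median of -0.19 against 0.02 for all 14731 genes tested. By pair the median was -0.04, -0.30 and -0.15. THBS1, THBS2, CCN1, CCN2 and TEAD1, 5 of the 10, were lower in 3 of 3 pairs, which held for 19.4% of all genes tested. In 2 of 10, THBS1 and TEAD1, all dexrazoxane arrays lay below all vehicle arrays, which held for 3.62% of all genes. The paired limma fit put 2 members, THBS1 and CCN1, among the genes called lower at an adjusted p under 0.05 (2.44% of all genes) and 0 among those called higher (2.42%). THBS1 stayed among the called genes in every setting of the paired fit that was run. CCN1 did not without the filter, with every probe set tested on its own, or when any 1 of the pairs was left out. Without the replicate block limma called 0 members and 0% of all genes, with 765 of 14731 genes at an unadjusted p under 0.05. As this comparison guided the choice of members, nothing is read from these counts. The same holds for the settings in which THBS1 and CCN1 kept or lost their calls, since all use these arrays. In arrays of whole cultures, fewer cells with a transcript and less of it per cell cannot be told apart.

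**Figure D3:**
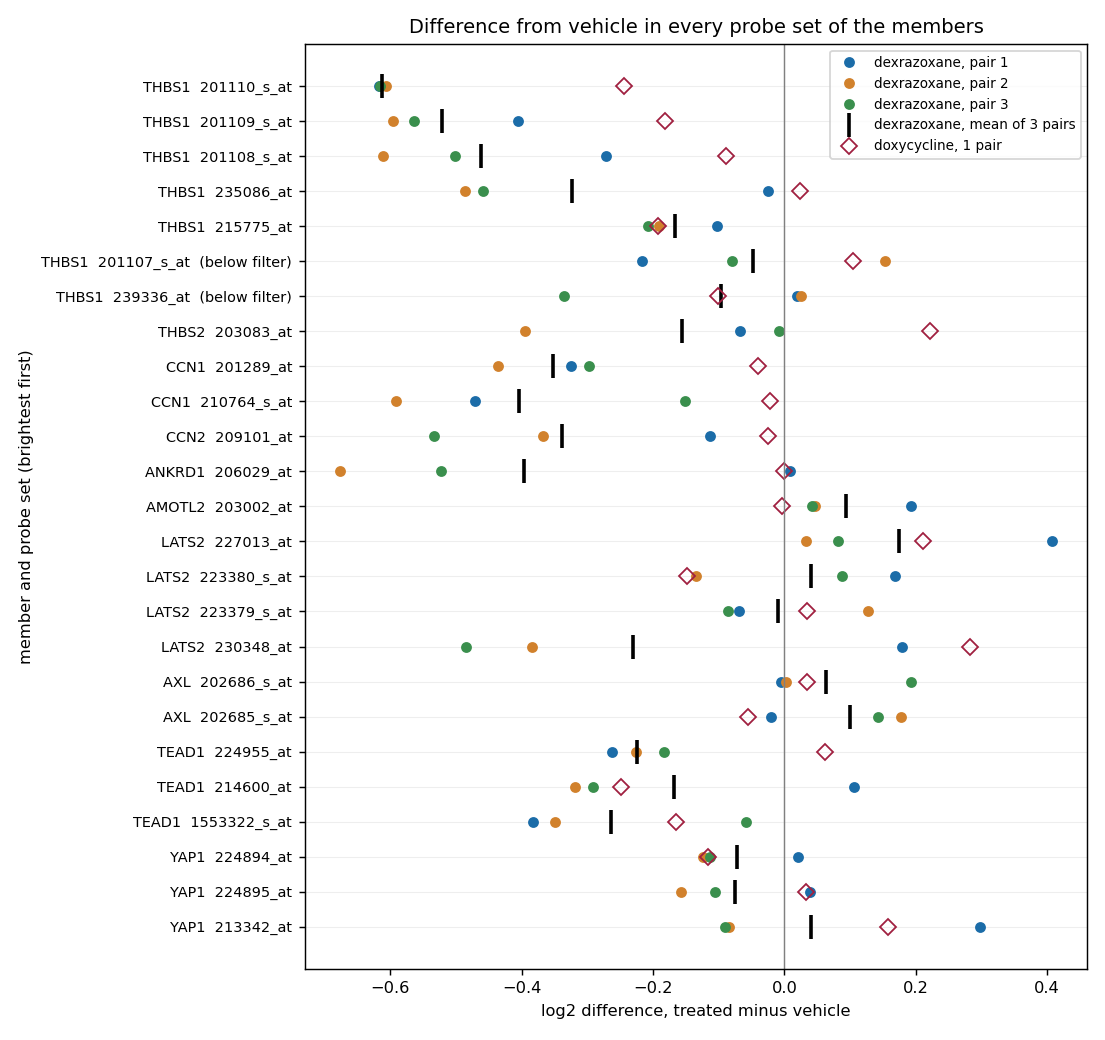
Log2 difference from vehicle for all 25 probe sets of the 10 members, brightest first within a member: dots are the 3 dexrazoxane pairs, black ticks their mean, and open diamonds the single doxycycline pair. The 3 brightest THBS1 probe sets lie between -0.61 and -0.46 with dexrazoxane, while AMOTL2 and AXL lie at or above 0 on average.

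Members also differed in how much they varied among the vehicle arrays, which are the same arrays that the dexrazoxane comparison uses. The gap between the highest and the lowest of the 3 vehicle arrays was 1.02 for ANKRD1, 0.87 for CCN2 and 0.70 for AMOTL2. Of all genes tested, 98.4%, 96.9% and 92.8% had a smaller gap, with a median of 0.31. The arrays behind these gaps were not the same: ANKRD1 was high on array 3, CCN2 low on array 2 and AMOTL2 high on array 1. AXL and TEAD1 varied little, each with a gap of 0.16, and 17.2% and 17.9% of genes had smaller ones. THBS1 (0.35), YAP1 (0.27), CCN1 (0.47), THBS2 (0.46) and LATS2 (0.51) lay between.

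**Figure D4:**
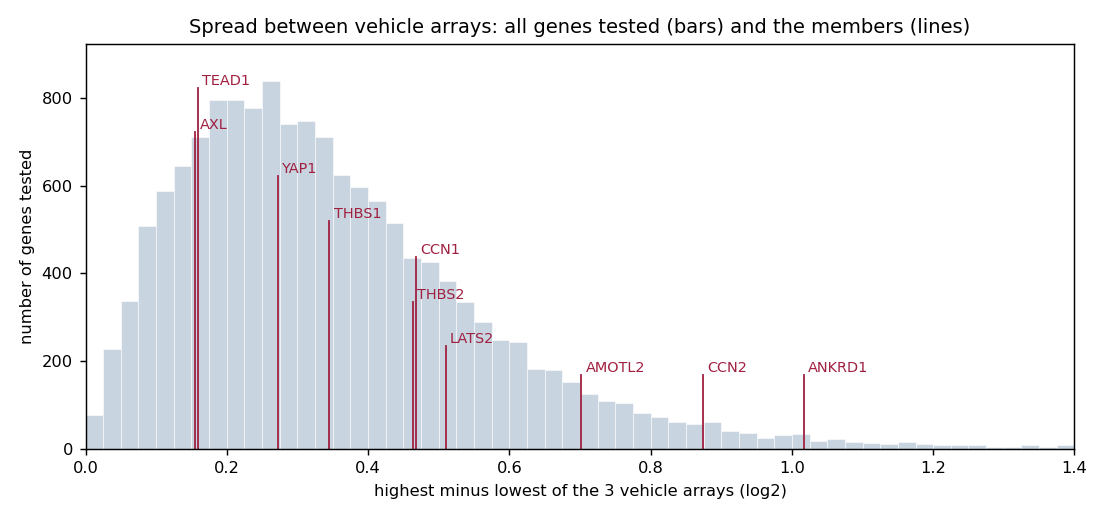
Number of genes tested by the gap between the highest and the lowest of their 3 vehicle arrays (log2), with a line for each member; 67 genes beyond 1.4 are not drawn. AMOTL2, CCN2 and ANKRD1, at 0.70, 0.87 and 1.02, lie in the upper tail.

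In the doxycycline pair the members' brightest probe sets differed by -0.24 to 0.22, and with 1 array per group no difference has an error. Over all genes tested the SD of this difference was 0.15, which THBS1, THBS2 and LATS2 exceeded in size. THBS1 read 10.20 with vehicle and 9.95 with doxycycline, a difference of -0.24. Its next probe sets gave -0.18 and -0.09, and its dimmer ones -0.19 to 0.10. THBS2 had the opposite sign, at 7.08 and 7.31 (0.22), as did LATS2, at 8.25 and 8.46 (0.21), although its other probe sets ran from -0.15 to 0.28.

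CCN1 differed by -0.04 and CCN2 by -0.02, AMOTL2 by -0.004, AXL by 0.03, TEAD1 by 0.06 and YAP1 by -0.12. ANKRD1 had the identical value of 7.65 on both arrays, as 9.62% of all probe sets of that pair had identical values. The median over the 10 members was -0.002 against 0.02 for all genes tested. None of the members' brightest probe sets passed 1.2-fold in either direction, which 5.93% of all genes tested did; of the 25 probe sets 1 did, the dimmest LATS2 probe set. CCN1, CCN2 and ANKRD1, which were 1.26- to 1.32-fold lower with dexrazoxane, were within 1.03-fold of vehicle with doxycycline, ANKRD1 through its identical values. THBS1 was lower in both comparisons, 1.53-fold with dexrazoxane and 1.18-fold with doxycycline. Whether the treatments differ could not be tested with 1 doxycycline array.

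The rest of the pathway was followed through lists that hold no member but were chosen with earlier results of these data known. WWTR1, which encodes TAZ, fell with dexrazoxane, from 11.15, 11.50 and 11.24 to 10.82, 10.96 and 10.75, with no overlap (-0.46 ± 0.08, SE, n = 3 pairs). By limma its adjusted p was 0.0222 with pairing and 0.904 without the block. RUNX2, a transcription factor that binds YAP and TAZ, fell by 0.37 ± 0.08 (limma paired adjusted p = 0.0351, and 0.941 without the block), but averaged over its probe sets it differed by -0.08 and was not called (0.517). These were 2 of 8 tested partners and cofactors called lower, against 2.44% of all genes, with 0 called higher, against 2.42%, and a median of 0.001. TEAD3 (0.18 ± 0.08) was not called (limma paired adjusted p = 0.220), and TEAD2 and TEAD4 differed by -0.004 and 0.07.

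Of 16 tested genes of the Hippo cascade, 2 fell in the paired limma fit (2.44% of all genes) and 0 rose (2.42%), with a median of -0.03. MAP4K4, a kinase that acts upstream on LATS, fell by 0.53 ± 0.09 (SE, n = 3 pairs, limma adjusted p = 0.0201 paired and 0.782 without the block), and PTPN14, a phosphatase that retains YAP and is itself a YAP target, fell by 0.38 ± 0.08 (0.0403 and 0.941). As means over their probe sets, MAP4K4 differed by -0.36 and PTPN14 by -0.40, and both kept their calls in the paired fit. The kinase gene STK3 differed by -0.21 ± 0.09 (limma paired adjusted p = 0.202). NF2, SAV1, LATS1 and STK4 lay between -0.05 and 0.08.

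The list of other YAP-TEAD targets held 14 tested genes, of which 2 were called lower (2.44% of all genes) and 1 higher (2.42%) in the paired limma fit, with a median of -0.24. Of the 14, 10 were lower in 3 of 3 pairs, against 19.4% of all genes. F3 counts among these with only -0.01, -0.05 and -0.005 in its pairs. As earlier results were known when the list was chosen, nothing is read from this count. Beside PTPN14, RBMS3, which encodes an RNA-binding protein, fell by 0.53 ± 0.12 (SE, n = 3 pairs, limma adjusted p = 0.0425 paired and 1.00 without the block). Averaged over its probe sets RBMS3 differed by -0.28. FJX1, the homolog of a Drosophila planar polarity gene, had no overlap between groups and a difference of -0.40 ± 0.11 but was not called (limma paired adjusted p = 0.0834). The stress-inducible cell cycle gene GADD45A rose by 0.32 ± 0.07 (limma adjusted p = 0.0498 paired and 0.958 without the block); it is also a known p53 target. The tissue factor gene F3 differed by -0.02.

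Among 14 tested relatives and receptors of the thrombospondins and CCN proteins, 0 were called higher (2.42% of all genes) or lower (2.44%), and the median was 0.12. In 3 of 3 pairs 0 were lower, against 19.4% of all genes, and 7 were higher, for which the share of all genes was not counted. CCN3 differed by 0.23 ± 0.09, CD47, the thrombospondin-1 receptor, by 0.23 ± 0.07 and the heparan sulfate proteoglycan gene SDC4 by 0.22 ± 0.07 (SE, n = 3 pairs; limma paired adjusted p of 0.104 to 0.174). As means over their probe sets, CD47 differed by 0.09 and CCN3 by 0.30. THBS3 and THBS4 differed by 0.01 and 0.02.

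Among 13 tested genes of the TGF-beta pathway, which both activates CCN2 and is activated by thrombospondin-1, SMAD3 fell by 0.57 ± 0.08 (SE, n = 3 pairs, limma adjusted p = 0.0152 paired and 0.941 without the block) and TGFB1 rose by 0.53 ± 0.09 (0.0199 and 1.00). LTBP1, which tethers latent TGF-beta to the matrix, differed by -0.36 ± 0.08 with no overlap (limma paired adjusted p = 0.0538), and TGFBR3 by -0.24 ± 0.08 (0.131). These were 1 gene lower and 1 higher of 13, against 2.44% and 2.42% of all genes, and the median of the list was -0.08. Averaged over its probe sets TGFB1 differed by 0.20 and was not called (limma paired adjusted p = 0.135), while SMAD3 differed by -0.39 and was called.

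Of 16 tested targets and components of SRF and MRTF, the actin-sensing factors that share several targets with YAP, 1 rose (2.42% of all genes) and 0 fell (2.44%), with a median of 0.13. That gene was ZYX, which encodes the focal adhesion protein zyxin (0.35 ± 0.08, SE, n = 3 pairs, limma adjusted p = 0.0438 paired and 1.00 without the block). In 3 of 3 pairs 4 of the 16 were lower, against 19.4% of all genes, and 8 were higher. CNN1, TAGLN2 and FHL2 differed by 0.30, 0.16 and 0.24 and were not called (limma paired adjusted p of 0.102 to 0.252). Of the 4 relatives and ligands of AXL, 0 were called, with TYRO3 at 0.06 ± 0.09, MERTK at -0.13 ± 0.08 and PROS1 at 0.24 ± 0.08. RBMS3, ZYX, TGFB1, TEAD2, TEAD4, NF2, SAV1, LATS1, STK4, F3, THBS3 and THBS4 fall outside the naming rule and were named after their values were seen.

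Leaving out a pair removed many of the calls on these lists. Of the 9 list genes called in the paired fit, TGFB1 alone kept its call without pair 1 (limma paired adjusted p = 0.0468), while the other 8 had adjusted p of 0.0600 to 0.172. GADD45A, PTPN14 and ZYX lost theirs without pair 2, and without pair 3 these and RUNX2 and WWTR1 did. Without the filter on low values GADD45A, PTPN14, RBMS3, RUNX2 and ZYX were not called (limma paired adjusted p of 0.0550 to 0.0786), and with each array centred on its median GADD45A was not (0.0522). When every probe set was tested on its own, 0 list genes were called.

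Of the markers of other cell types KRT8 was called, with 0.51 ± 0.10 (limma adjusted p = 0.0334 paired and 1.00 without the block; 0.0509 paired without pair 1). It was 1 of 3 tested epithelial markers, whose summed log2 values ran from 26.54 to 26.95 with vehicle and from 27.44 to 28.15 with dexrazoxane. Of 11 mesenchymal, 2 leukocyte and 3 endothelial markers 0 were called. Their part in the values above was not tested.

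**Figure D5:**
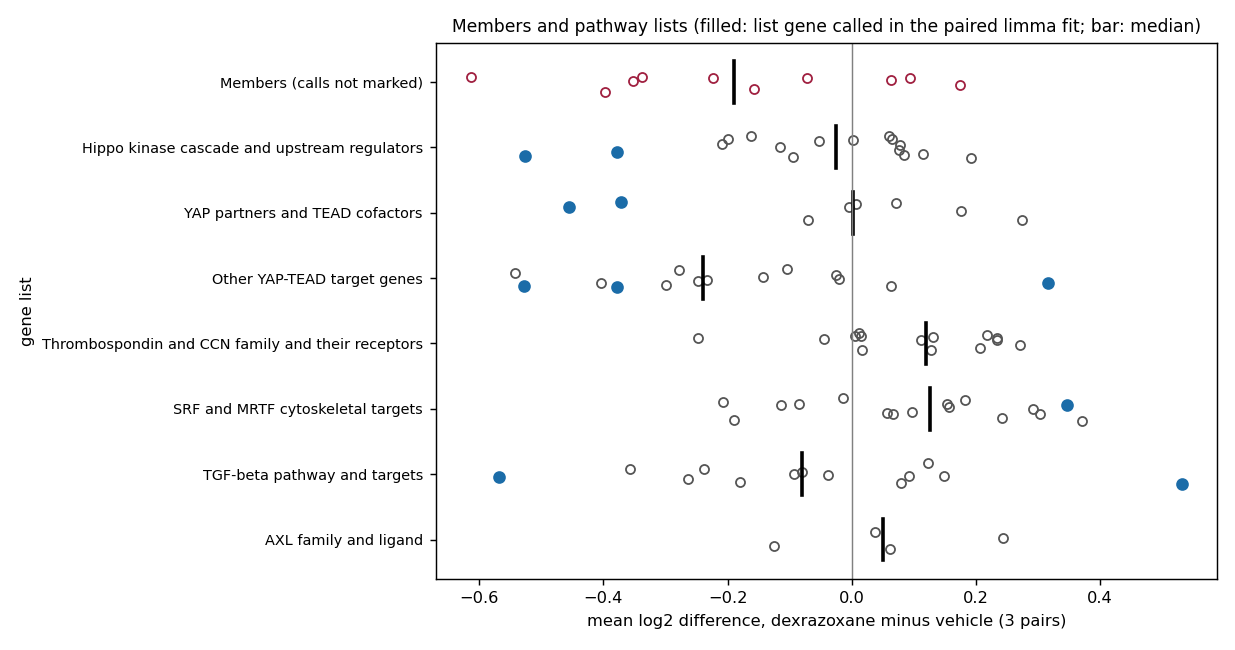
Mean log2 difference between dexrazoxane and vehicle (3 pairs) for the members and for each tested gene of the 7 pathway lists; filled dots are list genes called in the paired limma fit, calls of members are not marked, and black bars are medians. The medians of the members and of the other YAP-TEAD targets are -0.19 and -0.24, and those of the receptor and SRF lists are 0.12 and 0.13.

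The genes whose profile over the 6 arrays was most like that of THBS1 were GUCY1B1, a subunit of soluble guanylate cyclase, ANKRD26, C5orf34, RRM2, a subunit of ribonucleotide reductase, and KIAA1549L. Likeness was the root mean square difference between centred log2 profiles over the 6 arrays, which was 0.08 to 0.10 for these 5 against a median of 0.38 for 14721 genes. All 5 were lower with dexrazoxane, by a mean of -0.68 to -0.46, as the measure itself requires. In the doxycycline pair, which the measure did not use, they differed by -0.12 to 0.08, against -0.24 for THBS1.

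The 5 most like CCN1 were SH3KBP1, an endocytic adaptor gene, FAM131A, UBE2E2, a ubiquitin-conjugating enzyme gene, SNAPC5, which encodes a subunit of the snRNA activating complex, and C1orf174, at 0.06 to 0.07 against a median of 0.33. Among the members themselves THBS2 came closest to CCN1 (0.14) and TEAD1 closest to THBS1 (0.22), while THBS1 and CCN1 were 0.37 apart and CCN2 and CCN1 0.41. Over all pairs of members the difference ran from 0.14 to 0.65, the last between ANKRD1 and AMOTL2.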

How the data were processed

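The deposited unit is log2 expression, 1 value for each probe set and array, which the authors made with RMA (background correction, quantile normalization, summarisation), per the submitters' processing notes. The software version, and whether the 8 arrays were processed together, are not given in the sources used here. Array medians were 4.81 to 4.82 in the doxycycline pair and 5.49 to 5.57 on the dexrazoxane and dexrazoxane vehicle arrays. The deposited values thus do not share the same distribution across the 8 arrays. Names came from the platform annotation; of 41097 probe sets with 1 symbol, 41043 took their current symbol from RefSeq (GRCh38.p14) by Entrez identifier. Each gene was represented by its brightest probe set, and 14731 genes at or above a mean of 4.83, the 40th percentile over probe sets, entered the tests. Members and pathway lists were chosen with earlier results of these data known.

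Dexrazoxane was compared with vehicle by limma 3.58.1 in R 4.3.3 (lmFit, eBayes, two-sided, Benjamini-Hochberg over all genes tested, adjusted p under 0.05), planned without a block. The labels number the arrays 1 to 3 in both groups and do not say whether equal numbers are matched cultures. After subtracting group means, arrays of equal number correlated at 0.823, 0.574 and 0.716 and others at -0.629 to 0.181. Deviations within a group cancel out, so high values for equal numbers by themselves lower the others. On this ground a second, paired fit held the number as a block, a choice resting on the same values that it tests. Its SEs are printed. In them eBayes draws each variance toward that of the others in the fit, so they differ from the scatter of a gene's own pairs. The SEs of probe sets other than a gene's brightest, and of all 3 YAP1 probe sets, come from the paired fit of every probe set. The procedure was tested on simulated data. The naming rule took up to 3 genes of each pathway list with the smallest p without the block, and the 5 profiles nearest to THBS1 and to CCN1. The doxycycline pair has no test. The number of arrays limits the precision.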

Additional observations from a re-analysis of the deposited data

How the results depend on the processing

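Without the block limma called 0 genes higher and 0 lower; alternatives that also lack it gave at most 1, a lower gene, which appeared when probe sets were tested singly, under trended and robust variance, and without dexrazoxane array 1. The replicate block gave 357 higher and 360 lower genes, and 3 and 6 on the pathway lists. Counts under further alternatives are given with the block, higher then lower, first for all genes and then for the lists. They were 195, 230, 1 and 3 unfiltered, 348, 339, 2 and 6 for averaged probe sets, and 69, 84, 0 and 0 for single probe sets. Centring arrays gave 366, 371, 2 and 6, and trended, robust variance 992, 852, 10 and 14. They were 42, 56, 1 and 0 without pair 1, 416, 414, 4 and 6 without pair 2, and 211, 200, 1 and 4 without pair 3. Single probe sets enlarge the number of tests and a left-out pair lowers the number of arrays, though counts over all genes were higher without pair 2. Why the counts changed was not tested.

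The members' median difference with dexrazoxane ran from -0.27 to -0.08, and 0 members passed 1.2-fold with doxycycline, under the alternatives run. Leaving out pairs for the members was chosen after seeing the data. Of 120 member values with dexrazoxane 119 moved by less than the SD between arrays of a group, and the exception was THBS1 averaged over probe sets. This SD was wide for CCN2 and ANKRD1, at 0.48 and 0.55 with vehicle, so their large shifts given above stayed within it. Values with the replicate block equal the main ones by construction, so the count does not measure stability. YAP1 was 0.01 without vehicle array 2 and 0.002 without dexrazoxane array 3. TYRO3, not called, ran from -0.0688 without dexrazoxane array 1 to 0.239 without vehicle array 1, with -0.0605 without vehicle array 2 and -0.0493 without pair 2 (block).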

Other observations

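Actin and contractile genes on the SRF and MRTF list separated replicate 1 from replicates 2 and 3. Of 16 tested genes, replicate 1 was the highest in both groups for 12 and the lowest in both for 1, a count made after the values were seen. The share of all genes tested with these orders was not counted, so the count is not read as particular to this list. Over all genes tested, deviations from group means correlated at 0.823 between the arrays numbered 1, 0.574 for number 2 and 0.716 for number 3. MYL9, a myosin light chain gene, read 9.01, 7.74 and 7.27 on vehicle arrays 1 to 3 and 9.22, 7.96 and 7.71 on dexrazoxane arrays 1 to 3. TPM1, which encodes a tropomyosin, read 12.50, 11.33 and 11.71 with vehicle and 12.31, 11.30 and 11.36 with dexrazoxane. ZYX read 9.07, 8.23 and 8.15 with vehicle and 9.40, 8.68 and 8.41 with dexrazoxane. The smooth muscle actin gene ACTA2 had the opposite order, at 8.73, 9.81 and 9.95 with vehicle and 9.37, 10.01 and 10.23 with dexrazoxane. For these 4 genes replicate 1 stood farther from the nearest other replicate, in both groups, than the treatments stood from each other. Pair 1 was the pair in which ANKRD1, CCN2 and YAP1 differed least. It was also the pair in which LATS2, AMOTL2, TEAD1 and, by very little, THBS1 differed most, and THBS2, CCN1 and AXL lay between. The part of these differences between replicates in the values of the members was not tested.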
